A study of Mus musculus with 19 samples.

Results

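The expression of 49 cell cycle and DNA replication genes was examined in 19 primary p53/MCA sarcomas, mouse soft tissue sarcomas induced in the leg muscle. The genes were chosen by symbol, and each of the 49 matched 1 of the 48795 gene rows of the RNA sequencing table. They were divided by role into 18 S phase genes, which copy the DNA, 27 mitotic genes, which separate the copies, and 4 others (the proliferation marker Mki67 and the transcription factors E2f1, Foxm1 and Mybl2). Of the tumors, 11 grew in Rag2-/- mice, which lack mature T and B cells, and 8 in Rag2+/- mice, which keep a working Rag2 allele and are immune competent. Mice of both groups were injected in the gastrocnemius at 6 to 10 weeks of age with adenovirus that delivered Cas9 and a guide RNA for Trp53, and then with 300 µg of the carcinogen MCA (3-methylcholanthrene). No mouse was treated, and tumors were taken at a volume of about 70 to 150 mm3. Each tumor gave 1 bulk library of everything in the sample, so the values average over tumor cells, immune cells and muscle. Tumors are named by their library codes, S41 to S51 for Rag2-/- and S52 to S60 for Rag2+/-, a range with no S57. The study lists 15 of these tumors in its own comparison of the genotypes and not S41, S46 and S51 (Rag2-/-) and S56 (Rag2+/-).

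Each value is the log2 of an upper-quartile normalized FPKM (fragments per kilobase and per M fragments, M for mega, scaled to the upper quartile of each library) with 0.1 added, so that 1 unit is a doubling and −3.32 is the lowest value in the table. FPKM is per length, so levels can be compared between genes. The depth estimated from the low values was 24.7 to 33.7 M fragments on genes in 18 tumors and 5.23 M in S41. The median gene of the set had an estimated 925 fragments in a tumor, and the lowest value, that of Cdc20 in S51, rested on 5. The mesenchymal markers Vim, Col1a1, Col1a2, Col3a1, Pdgfrb, Thy1, Fap and Prrx1 had a mean between 5.65 and 8.11 in every tumor. The T cell list ran from −2.40 to −1.23 in Rag2-/- and from 0.09 to 2.43 in Rag2+/- tumors and did not overlap between the genotypes. Rag2 RNA from the whole gene was at −2.05 to 0.36 (median −0.16) in Rag2-/- and at −2.33 to −0.57 (median −1.13) in Rag2+/- tumors. That value does not check the labels, since it does not show which part of the gene was transcribed. Skeletal muscle genes were also high, and they varied widely: the mean of 15 of them, Acta1, Ckm and Ttn among them, ran from 3.84 in S48 to 12.54 in S56.

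A dividing cell commits to a new cycle when the E cyclins activate their kinase and E2F factors switch on the genes for DNA synthesis. The MCM helicase is loaded at origins by Cdc6 and Cdt1, opened by Cdc45 and the GINS complex, and followed by the sliding clamp Pcna, while ribonucleotide reductase, thymidylate synthase and thymidine kinase supply the nucleotides. Mitotic genes come on later, under Foxm1 and Mybl2, and include the A and B cyclins with Cdk1, the Aurora and Polo kinases, the spindle checkpoint, kinetochore proteins and spindle motors. Because both sets are made mainly in cycling cells, their bulk level falls when such cells are fewer or when each holds less of the RNA. These 2 cases cannot be told apart in a bulk library.

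The promoters of the 2 classes were searched for 3 short elements known from cell cycle genes. The CHR was searched as TTTGAA and also in its variant form TTCGAA. The CCAAT box was searched by the letters of its name. An E2F site was any match to TTCCCGC, to the similar letters TTGGCGC or to the related form TTCGCGC. Each was searched on both strands from 250 bases before to 50 after the transcription start of RefSeq (GRCm38.p6). Promoters were found for 40 of the 49 genes. The table used here had none for Ccna2, Ccne2, Aurkb, Kif20a, Tpx2, Mcm4, Gins1, Gins2 and Foxm1. Shares are of genes, and a gene counted if any of its promoters held the match. A CHR stood in 18 of 23 mitotic genes (78.3%) and in 3 of 14 S phase genes (21.4%), against 21.7% of the 27025 genes searched. A CHR together with a CCAAT box in the same promoter stood in 69.6% of the mitotic genes, 21.4% of the S phase genes and 8.61% of all. E2F sites had the opposite order, at 50% of the S phase genes, 8.7% of the mitotic genes and 9.2% of all. A CCAAT box was common to both classes (78.3% and 64.3%, against 41.1% of all). The letters TTGGCGC and a CCAAT box can overlap, as can 2 E2F sites on opposite strands, and a match is not a bound site.

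To show these elements in place, the 80 bases upstream of the start with the most matches are given for 5 mitotic or marker genes, 5′ to 3′ along the gene. The genes shown were chosen after the matches were seen. Capitals mark the CHR and CCAAT letters on either strand.
Cdk1, chr10:69352913-69352992, minus strand: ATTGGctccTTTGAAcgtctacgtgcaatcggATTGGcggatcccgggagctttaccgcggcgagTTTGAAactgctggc
Top2a, chr11:99024259-99024338, minus strand: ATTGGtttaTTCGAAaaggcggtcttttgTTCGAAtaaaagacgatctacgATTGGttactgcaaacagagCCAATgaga
Cdc20, chr4:118437344-118437423, minus strand: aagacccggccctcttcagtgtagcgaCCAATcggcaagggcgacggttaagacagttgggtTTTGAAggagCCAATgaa
Kif11, chr19:37376302-37376381, plus strand: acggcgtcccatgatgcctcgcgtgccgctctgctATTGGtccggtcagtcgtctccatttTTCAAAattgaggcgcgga
Mki67, chr7:135716466-135716545, minus strand: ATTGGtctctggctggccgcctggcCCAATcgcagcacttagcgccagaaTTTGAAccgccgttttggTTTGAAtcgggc

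For comparison, 4 stretches chosen in the same way are given from the S phase class. Capitals here mark E2F and CCAAT letters on either strand, and in Mcm6 and Mcm5 the longer capital runs are overlapping E2F letters.
Mcm6, chr1:128359735-128359814, minus strand: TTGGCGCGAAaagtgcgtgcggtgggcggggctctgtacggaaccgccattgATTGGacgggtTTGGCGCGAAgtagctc
Mcm5, chr8:75109357-75109436, plus strand: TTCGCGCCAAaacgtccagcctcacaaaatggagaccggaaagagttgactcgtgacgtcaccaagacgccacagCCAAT
Rrm1, chr7:102441604-102441683, plus strand: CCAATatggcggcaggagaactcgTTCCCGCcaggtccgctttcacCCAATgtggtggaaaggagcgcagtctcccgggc
Cdc6, chr11:98908013-98908092, plus strand: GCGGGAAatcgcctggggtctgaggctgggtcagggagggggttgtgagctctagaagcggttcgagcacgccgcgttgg

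Expression of the whole set varied far more from tumor to tumor than between the genotypes. In 4 tumors the cell cycle genes were low throughout: S51 (Rag2-/-) and S56, S59 and S60 (Rag2+/-). Their mitotic means were 0.51 to 1.6 and their S phase means 1.77 to 2.64, while the other 15 tumors spanned 3.17 to 4.83 and 3.37 to 4.76. No tumor lay in the gap. S51 was the lowest tumor for 38 of the 49 genes, S56 for 5, S60 for 4, and S46 and S59 for 1 each. At the other end, S53 (Rag2+/-) was the highest tumor for 29 genes, S48 (Rag2-/-) for 13, S58 (Rag2+/-) for 5 and S41 (Rag2-/-) for 2.

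**Figure D1:**
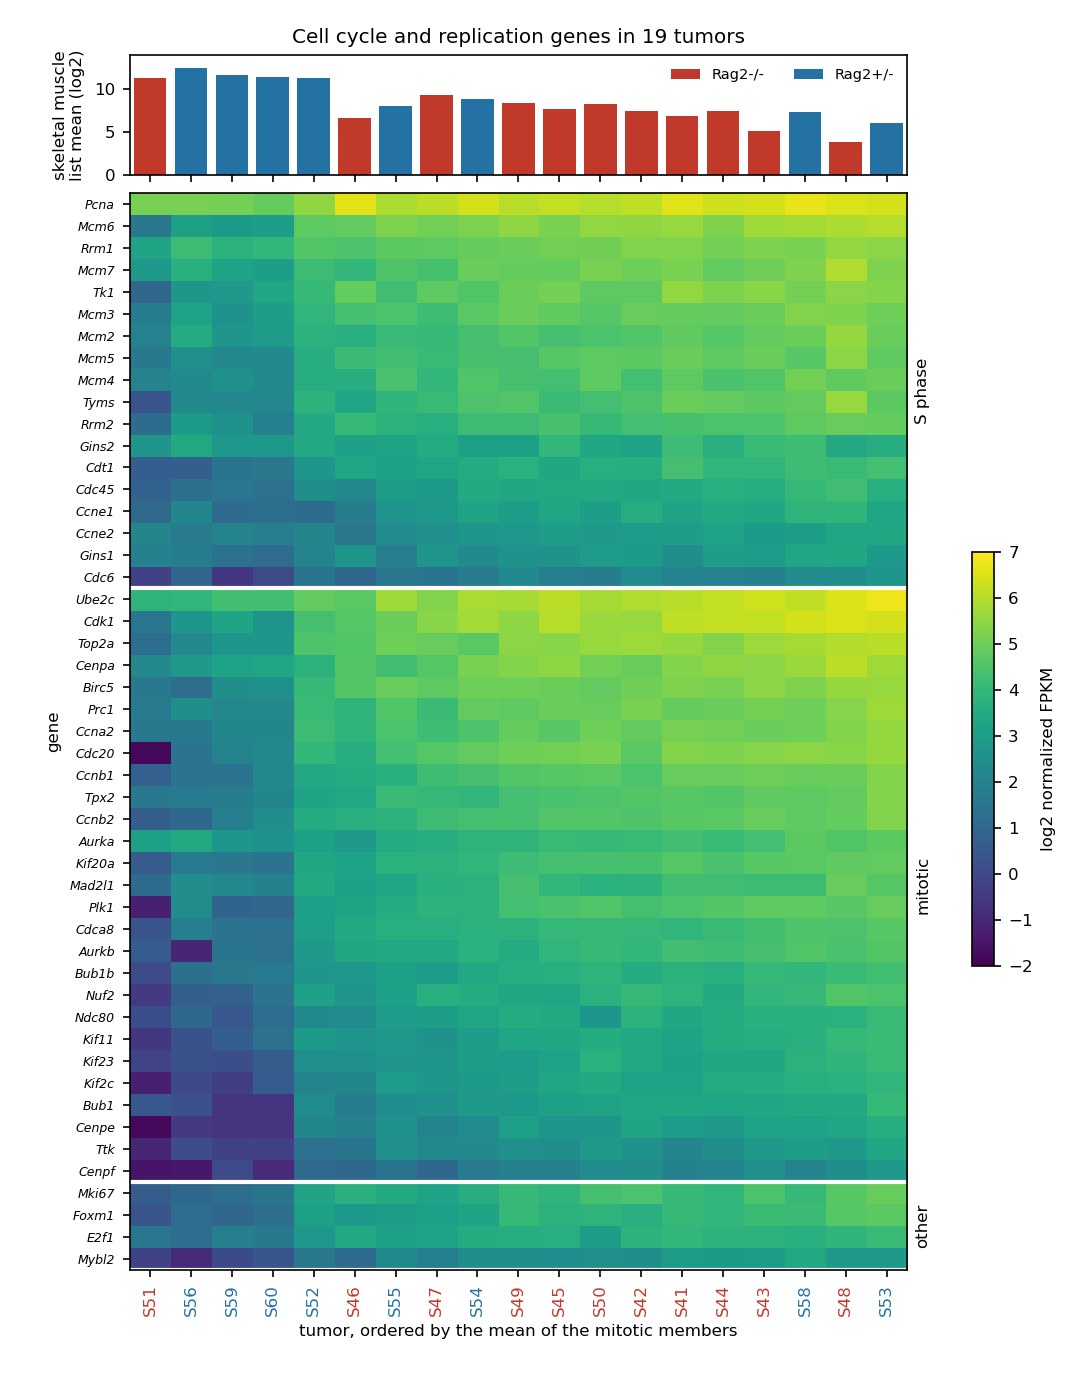
Heat map of the 49 genes (rows, by class and mean level) in 19 tumors (columns, ordered by the mean of the mitotic genes), colored by log2 normalized FPKM, with the mean of 15 skeletal muscle genes above (bars, red for Rag2-/- and blue for Rag2+/-). The 4 leftmost tumors, S51, S56, S59 and S60, are low in nearly every row, and tumors of both genotypes stand at each end.

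The low tumors had the highest muscle means, with 1 exception. S51, S56, S59 and S60 had muscle means of 11.35 to 12.54, whereas 14 of the other 15 tumors were at 9.39 or below. The exception was S52 (Rag2+/-), with a muscle mean of 11.36, a mitotic mean of 3.17 and an S phase mean of 3.37, the lowest of the 15 tumors. A second tumor went the other way: S46 (Rag2-/-) had a muscle mean of only 6.65 but a mitotic mean of 3.18. It also had the highest mean of a list of macrophage genes (8.31) and of a list of endothelial genes (4.71), whose part in its cell cycle values was not tested. The mesenchymal list was lower in the 4 tumors as well (5.65 to 6.58, against 7.21 to 8.11). S51, S59 and S60 also carried the 3 highest of the numbers given in the tumors' titles, whose meaning is not stated, but S56 carried the lowest of all 19. Whether the low cell cycle values of these 4 tumors come from their muscle content was not tested.

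Of the G1/S cyclins, Ccne2 varied less over the 19 tumors (SD 0.57) than Ccne1 (SD 0.96), which was close to the S phase median of 0.97. Ccne1 (ENSMUSG00000002068) and Ccne2 (ENSMUSG00000028212), the cyclins that drive entry into S phase, had similar means over all tumors, 2.71 and 2.61. Ccne1 ranged from 1.12 in S51 over a median of 3.24 to 3.90 in S48 among the Rag2-/- tumors, and from 1.14 in S59 over 2.39 to 3.84 in S58 among the Rag2+/- tumors. For Ccne2 the Rag2-/- values ran from 1.57 in S46 over 2.91 to 3.34 in S48, and the Rag2+/- values from 1.67 in S56 over 2.21 to 3.35 in S53. Ccne2 was the only gene of the 49 whose lowest tumor was S46, and S51 was at 2.08 for it. The groups overlapped for both genes, which differed by 0.63 (SE 0.41) for Ccne1 and 0.37 (SE 0.25) for Ccne2, Rag2-/- minus Rag2+/- (adjusted p = 0.390 and 0.401 from limma, a linear model fitted to all 12826 genes with a mean above 0).

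The 12 licensing and replication fork genes covered a wide range of levels. Pcna (ENSMUSG00000027342) was the most abundant gene of the whole set, with a mean of 6.00 over all tumors, and Cdc6 (ENSMUSG00000017499) the second lowest, with 1.55. Pcna ran from 5.14 in S51 over 6.16 to 6.64 in S46 in Rag2-/- tumors and from 4.88 in S60 over 5.69 to 6.71 in S58 in Rag2+/- tumors. Cdc6, the helicase loader, ran from −0.22 in S51 over 1.96 to 2.40 in S48 and from −0.53 in S59 over 1.52 to 2.72 in S53. The linear level of Pcna therefore spanned 3.55-fold between the lowest and the highest tumor and that of Cdc6 11-fold. Mcm2 (ENSMUSG00000002870), a helicase subunit, lay between 2.01 (S51) and 5.59 (S48), median 4.54, in Rag2-/- tumors and between 2.73 (S59) and 4.99 (S58), median 3.93, in Rag2+/- tumors. All 3 genes overlapped between the genotypes, with differences of 0.42 (SE 0.24) for Pcna, 0.42 (SE 0.41) for Cdc6 and 0.39 (SE 0.39) for Mcm2 (limma adjusted p = 0.351, 0.528 and 0.540). Without S59 the difference was 0.16 for Cdc6 and 0.22 for Mcm2.

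The 6 subunits of the MCM helicase work as 1 ring with equal parts, but their RNA levels were not equal. The highest and lowest subunit of a tumor were 0.76 (S60) to 1.44 (S56) apart, with a median of 1.15. Mcm6 was the highest subunit in 14 tumors, Mcm7 in 4 and Mcm3 in 1. Mcm6 led in every tumor outside the low set except S48, where Mcm7 led with 5.94 against 5.88 for Mcm6. In S51, S56 and S59 Mcm7 led and in S60 Mcm3, so that the order of the subunits changed in the 4 low tumors. Mcm6 had a range of 4.44 over the tumors, the widest of the 6, and reached 1.57 in S51, where it was the lowest subunit.

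The GINS subunits held the extremes of the comparison between genotypes. Gins1 (ENSMUSG00000027454) had the lowest p of the 49 genes. Its values were 1.94 in S51, a median of 2.74 and 3.39 in S48 for Rag2-/- tumors, and 1.22 in S60, a median of 1.95 and 3.28 in S58 for Rag2+/- tumors. The mean was 2.74 ± 0.37 (SD, n = 11) in Rag2-/- and 2.09 ± 0.69 (SD, n = 8) in Rag2+/- tumors, with the groups overlapping (two-sided exact permutation test, p = 0.0174). The difference of 0.66 (SE 0.24) had an unadjusted p of 0.0133 and an adjusted p of 0.301 in limma, so it did not pass. Gins2, its partner, showed the smallest difference, 0.15 (SE 0.21, adjusted p = 0.664), and the narrowest range of all, from 2.69 in S51 to 4.22 in S58.

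The genes of nucleotide supply were Rrm1 and Rrm2 (the subunits of ribonucleotide reductase), Tyms (thymidylate synthase) and Tk1 (thymidine kinase). Rrm2 (ENSMUSG00000020649) was at 1.19 in S51, at a median of 4.33 and at 4.91 in S48 among Rag2-/- tumors, and at 1.88 in S60, a median of 3.61 and 4.86 in S53 among Rag2+/- tumors. Rrm1, the large subunit, had a higher mean level than Rrm2 (4.78 against 3.81) and a smaller SD over tumors (0.61 against 1.01). Tk1 differed most of the 4 between genotypes, by 0.69 (SE 0.51, adjusted p = 0.432), and Rrm1 least, by 0.33 (SE 0.27, adjusted p = 0.469). Tyms had the widest range of any S phase gene, 5.22, from 0.39 in S51 to 5.60 in S48.

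The mitotic genes moved over a wider range. Cdk1 (ENSMUSG00000019942), the kinase that starts mitosis, stood at 1.52 in S51, a median of 5.64 and 6.47 in S48 in Rag2-/- tumors, and at 2.64 in S60, a median of 4.66 and 6.41 in S58 in Rag2+/- tumors. Its linear level spanned 32-fold. Ccnb1 (ENSMUSG00000041431), a B cyclin that activates Cdk1, stood at 0.77 in S51, a median of 4.68 and 5.0 in S43 in Rag2-/- tumors, and at 1.43 in S56, a median of 3.58 and 5.32 in S53 in Rag2+/- tumors. The genotypes overlapped for both, at differences of 0.82 (SE 0.63) and 0.89 (SE 0.59), with limma adjusted p of 0.450 and 0.394. The remaining members of the group, Ccna2 and Ccnb2, differed by 0.81 and 0.77.

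Top2a (ENSMUSG00000020914), the topoisomerase that untangles chromosomes, had values of 1.23 (S51), 5.43 (median) and 5.98 (S48) in Rag2-/- tumors and of 2.19 (S56), 4.61 (median) and 6.06 (S53) in Rag2+/- tumors. Plk1 (ENSMUSG00000030867), a Polo kinase, had values of −1.22 (S51), 4.42 (median) and 4.80 (S43) in Rag2-/- tumors and of 0.91 (S59), 3.33 (median) and 4.92 (S53) in Rag2+/- tumors. Aurkb (ENSMUSG00000020897), the kinase of the chromosomal passenger complex, had values of 0.61 (S51), 3.94 (median) and 4.41 (S48) in Rag2-/- tumors and of −1.05 (S56), 3.12 (median) and 4.58 (S53) in Rag2+/- tumors. The lowest tumor was thus not the same for all kinases: S51 was lowest for Plk1, where S56 stood at 2.40, and S56 was lowest for Aurkb. Aurkb had the largest difference between genotypes of the 49 genes, 1.02 (SE 0.64), and an adjusted p of 0.380 in limma, but without S56, where it rested on an estimated 9 fragments, the difference was 0.50 and that of Bub1 was larger, 0.79. Bub1, a checkpoint kinase, had a difference of 1.01 in all tumors (SE 0.60, adjusted p = 0.356), the lowest p of the mitotic class. Aurka, the Aurora kinase of the spindle poles, had the smallest difference of the mitotic class, 0.29 (SE 0.29, adjusted p = 0.542).

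Of the mitotic exit genes, Ube2c varied less (SD 0.90) than Cdc20, although both act with the anaphase-promoting complex. Ube2c, its ubiquitin-conjugating enzyme, was the second most abundant gene of the set, at a mean of 5.49, and stayed between 3.85 (S51) and 6.76 (S53). Cdc20, its activator, had the largest SD over tumors of all 49 genes (1.89) and ran from −1.82 in S51 to 5.58 in S53. The next lowest value of Cdc20 was 1.43, in S56. Its rank by SD includes the S51 value, which rested on an estimated 5 fragments, and was not computed without it.

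Among the motors and spindle proteins, the mean level over tumors was highest for Prc1, an anaphase microtubule bundler (4.26), and lowest for Kif2c, a microtubule-depolymerizing kinesin (2.45). Their differences between genotypes ran from 0.62 (Prc1, SE 0.52) to 0.84 (Kif2c, SE 0.66), and the lowest adjusted p was 0.380, for the spindle assembly factor Tpx2. Among the kinetochore genes Cenpa, the histone H3 variant of the centromere, was the highest at 4.66 and Cenpf the lowest of all 49 genes at 1.32. Nuf2, a subunit of the microtubule-binding NDC80 complex, differed least of them, by 0.63 (SE 0.61), and Cenpe, a kinetochore motor, most, by 0.88 (SE 0.70).

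The last group held the proliferation marker and 3 transcription factors. Mki67 (ENSMUSG00000031004), which codes for the proliferation antigen Ki-67, was at 0.66 in S51, a median of 4.03 and 4.65 in S48 in Rag2-/- tumors, and at 1.01 in S56, a median of 3.39 and 4.89 in S53 in Rag2+/- tumors. Foxm1 (ENSMUSG00000001517), a factor that drives mitotic genes, was at 0.40 in S51, a median of 3.86 and 4.68 in S48, and at 0.99 in S59, a median of 3.06 and 4.72 in S53. Both genes put S53 and S48 at the top and the 4 low tumors at the bottom. E2f1 (ENSMUSG00000027490), an activator of S phase genes, was at 1.53 in S51, a median of 3.69 and 3.98 in S41, and at 1.20 in S56, a median of 2.96 and 4.10 in S53. Mybl2 (ENSMUSG00000017861), which with the MuvB complex activates mitotic genes, was at −0.22 in S51, a median of 2.48 and 2.95 in S41, and at −0.92 in S56, a median of 1.93 and 3.42 in S58. S56 rather than S51 was lowest for E2f1 and Mybl2. The 4 genes differed between genotypes by 0.70 (E2f1) to 0.88 (Mki67, SE 0.55), with limma adjusted p between 0.337 and 0.447.

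The comparison of genotypes asked whether the cell cycle genes of the bulk tumors differed between mice with and without mature T and B cells. All 49 genes had a higher mean in Rag2-/- than in Rag2+/- tumors, and none passed the test. The estimate was above 0 for 49 of 49 genes, against 56.2% of the 12826 genes tested, but the 49 move together and are not 49 independent signs. The median difference was 0.66, against 0.06 over all genes tested. With the Xist level, which marks RNA from female mice, as a covariate it was 0.28, against 0.03 over all genes. Xist was below 0 in 4 of 11 Rag2-/- and 5 of 8 Rag2+/- tumors, and in all 4 low tumors (−3.32 to −3.28). By class the median without a covariate was 0.48 for the S phase genes, 0.77 for the mitotic genes and 0.73 for the other 4. The range ran from 0.15 (Gins2) to 1.02 (Aurkb). At an adjusted p of 0.05 limma called 0 of the 49 and 4 genes of 12826 (0.0312%). At an unadjusted p of 0.05, 1 of the 49 passed, Gins1, against 6.74% of all genes in that direction and 16.3% in either. The groups did not overlap for 0 of the 49 and for 2 genes of all (0.0156%).

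A single tumor decided how many genes reached an unadjusted p of 0.05. Without S51, the low Rag2-/- tumor, 38 of the 49 did, all higher in Rag2-/-, against 15.9% of all genes in that direction, and the median difference was 0.96. Without S53 the count was 7 (10.8% of all genes) and without S58 it was 5 (10.0%). The count was 2 without S46 and 1 without any one of the other tumors. Without both S51 and S56, the tumor with the lowest mitotic mean in each genotype, 9 did (9.35%). Without S51, S59 and S60 3 did (4.82%), and the median difference was 0.50. In the 15 listed tumors 15 did (11% in that direction and 22.1% in either). The adjusted p stayed above 0.05 for each of the 49 in each of these fits.

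Seen as classes, S phase and mitotic genes both leaned to the Rag2-/- side, and the groups overlapped. Rag2-/- tumors had an S phase mean of 3.97 ± 0.80 (SD, n = 11), which was 0.51 above the 3.46 ± 0.91 (SD, n = 8) of Rag2+/- tumors. Their mitotic mean, 3.77 ± 1.15 (SD, n = 11), was 0.72 above the 3.05 ± 1.41 (SD, n = 8) of the other genotype. Both differences were smaller than the SD within either group. No p was computed for these means, because they are scores over chosen genes.

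**Figure D2:**
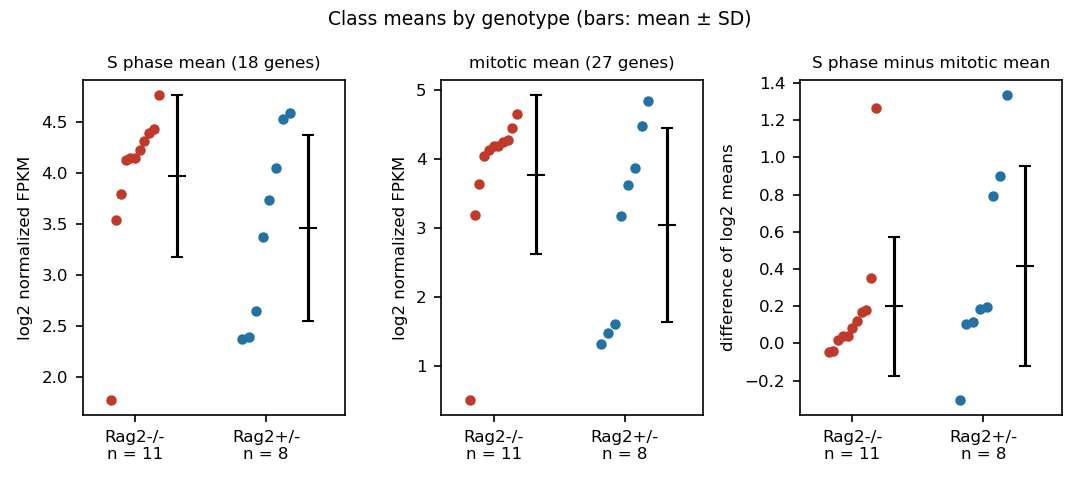
S phase mean of 18 genes, mitotic mean of 27 genes and the difference between them (log2 normalized FPKM) for each tumor, with the mean ± SD of 11 Rag2-/- (red) and 8 Rag2+/- (blue) tumors beside the points. In the panels of the S phase and mitotic means, 1 Rag2-/- tumor (S51) and 3 Rag2+/- tumors lie well below the rest. In the panel of the difference the same tumors lie above the rest. The groups overlap in each panel.

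**Figure D3:**
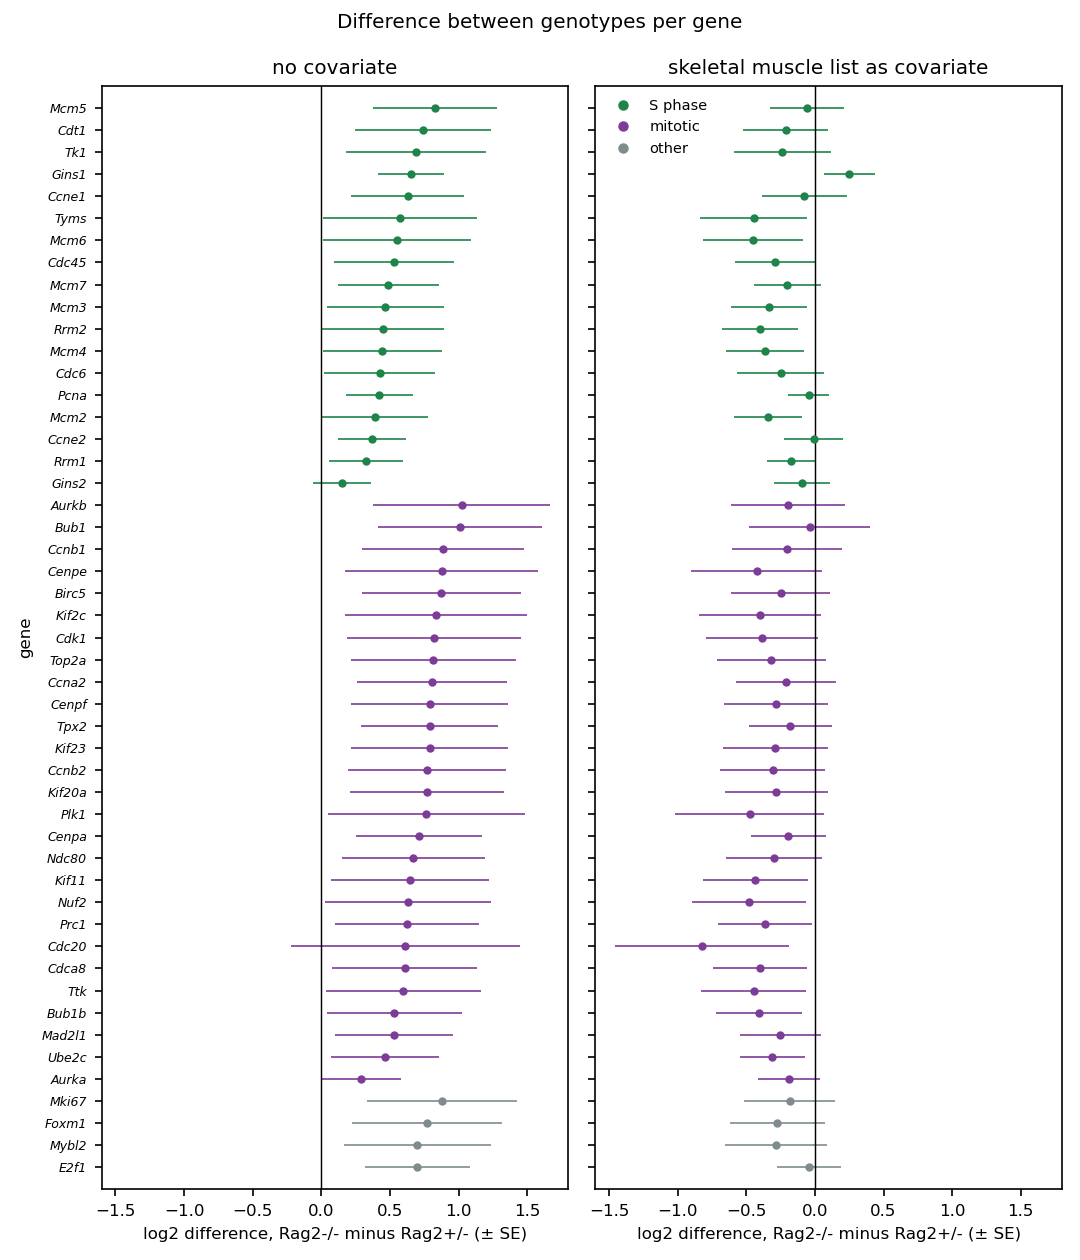
Difference between genotypes for each gene, Rag2-/- minus Rag2+/- (log2, point ± SE from limma, n = 11 and n = 8), without a covariate (left) and adjusted for the muscle list (right), colored by class. All 49 points are above 0 on the left, and 48 are below 0 on the right.

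The skeletal muscle list differed between the genotypes beside these genes, with a mean of 7.50 ± 1.99 (SD, n = 11) in Rag2-/- and 9.67 ± 2.40 (SD, n = 8) in Rag2+/- tumors. Of its 15 genes 15 were lower in Rag2-/- tumors, 11 of them at an unadjusted p under 0.05 (16.3% of all genes passed in either direction) and 0 at an adjusted one, and the list ran from 3.84 to 11.35 in Rag2-/- and from 6.02 to 12.54 in Rag2+/- tumors. None of the 15 was at the lowest value in all tumors. When the muscle list was added to the model, the difference was below 0 for 48 of the 49 genes and above 0 for Gins1 alone (0.25), while 46.1% of all genes tested were above 0. The median was then −0.28 (−0.23 for S phase and −0.31 for mitotic genes), against −0.02 over all genes. Of the 49, 0 passed an adjusted p of 0.05 (lowest 0.999) and 0 an unadjusted p of 0.05, against 4.12% of all genes.

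In the same model every one of the 49 genes fell with the muscle list at an adjusted p under 0.05, as did 30.2% of all genes (54.7% rose or fell). The median slope was −0.35 per unit of muscle mean for the S phase genes (from −0.47 for Tyms to −0.11 for Gins2) and −0.50 for the mitotic genes (from −0.66 for Cdc20 to −0.22 for Aurka), against −0.02 over all genes. Cenpe (−0.60), Plk1 (−0.57) and Kif2c (−0.57) came next to Cdc20. In S51 Cdc20, Cenpe, Plk1 and Kif2c rested on an estimated 5, 22, 11 and 14 fragments. A line fitted to the class means on muscle, without genotype, had slopes of −0.31 (S phase) and −0.45 (mitotic) over all 19 tumors. Without S51, S56, S59 and S60 the slopes of that line were −0.16 and −0.19. The scaling of the libraries moved with muscle too: a single fragment on a kilobase stood for 0.0562 to 0.0853 normalized FPKM in S51, S52, S56, S59 and S60, and for 0.0342 to 0.0422 in the other tumors of normal depth. Rescaling each tumor to the same total, a setting chosen after seeing the data, moved the median difference of all genes to 0.32 and that of the 49 to 0.91. Such a rescaling shifts the genes of a tumor nearly alike, so the distance of 0.59 between the 49 and all genes could hardly change by it.

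**Figure D4:**
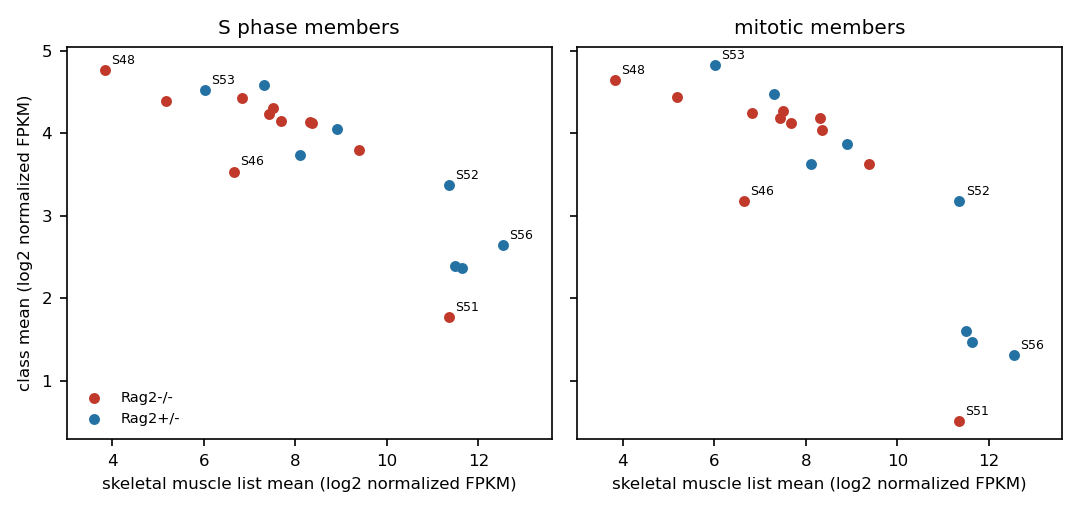
Mean of the S phase genes (left) and of the mitotic genes (right) against the mean of 15 skeletal muscle genes (all log2 normalized FPKM), 1 point per tumor, red for Rag2-/- (n = 11) and blue for Rag2+/- (n = 8). Class means are lower in tumors with more muscle RNA, with S46 and S52 away from the other points of similar muscle mean.

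The S phase genes changed less than the mitotic genes between tumors. The SD of a gene over the 19 tumors had a median of 0.97 for the S phase class (0.45 to 1.28) and 1.33 for the mitotic class (0.65 to 1.89). In the low tumors the gap between the classes opened. Relative to the median over tumors, the typical S phase gene was 2.35 lower in S51 and the typical mitotic gene 3.4 lower. In S56 these were 1.22 and 2.78, in S59 1.83 and 2.57, and in S60 1.75 and 2.42. Single genes lay further out, with Cdc20 at −6.66 and Tyms at −3.92 in S51 and Aurkb at −4.79 in S56. The S phase mean minus the mitotic mean was 0.79 to 1.33 in the 4 low tumors and −0.30 to 0.35 in the others. The mitotic mean was above the S phase mean in only 3 tumors, S53, S43 and S50. Between genotypes, the difference between the classes was 0.20 ± 0.37 (SD, n = 11) in Rag2-/- and 0.42 ± 0.54 (SD, n = 8) in Rag2+/- tumors, −0.22 apart, which is within the spread of either group.

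**Figure D5:**
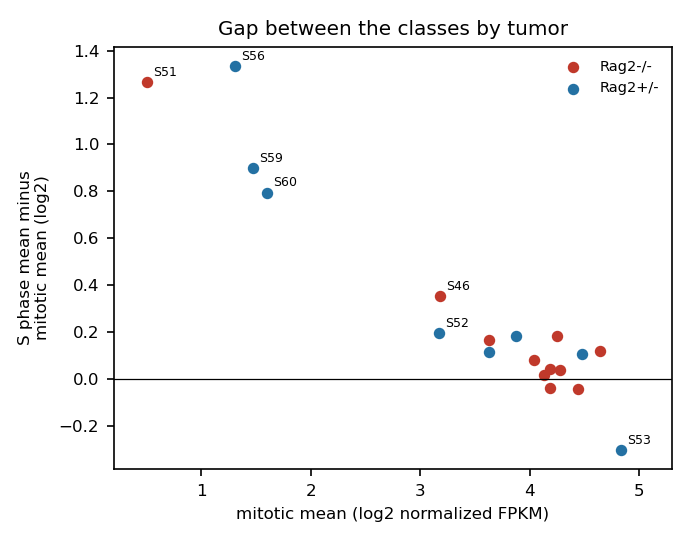
S phase mean minus mitotic mean (log2) against the mitotic mean (log2 normalized FPKM), 1 point per tumor, red for Rag2-/- (n = 11) and blue for Rag2+/- (n = 8). The gap is 0.79 to 1.33 in S51, S56, S59 and S60 and between −0.30 and 0.35 in the other 15 tumors.

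Because the 4 low tumors stand apart from the other 15, correlations across tumors were read within the 15. Mki67 and Top2a correlated with r = 0.884 and rho = 0.900 (n = 15, permutation p = 3e-05 and 2e-05, adjusted p = 1.2e-04 and 8e-05 over 4 pairs). Mki67 and the S phase gene Mcm2 correlated with r = 0.779 and rho = 0.804 (n = 15, permutation p = 6.1e-04 and 5.1e-04, adjusted p = 8.13e-04 and 7.07e-04). Both relations held without the 2 tumors farthest from the median of Mki67, at r = 0.875 and 0.776 (n = 13). Muscle creatine kinase, Ckm, ran against both, at r = −0.778 and rho = −0.804 with Mki67 (n = 15, permutation p = 5e-04 and 5.3e-04, adjusted p = 8.13e-04 and 7.07e-04). With Mcm2 it gave r = −0.771 and rho = −0.779 (n = 15, permutation p = 0.00107 and 0.00106, adjusted p = 0.00107 and 0.00106). Without the 2 tumors farthest from the median of Mki67, its r with Ckm was −0.785 (n = 13). Without the 2 farthest from the median of Mcm2, the r of Mcm2 with Ckm was −0.858 (n = 13).

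As a description over the same 15 tumors, which include S41 with its lower depth and S52 with its different scaling, the median correlation between gene pairs was 0.803 within the S phase class, 0.889 within the mitotic class and 0.836 between the classes. The S phase and mitotic means correlated with r = 0.967, with 0.78 units of S phase mean for each unit of mitotic mean. The muscle list correlated with the S phase mean at −0.735 and with the mitotic mean at −0.681, and at 0.292 with the gap between the classes. Over all 19 tumors, with the low tumors standing apart, the muscle list and the gap gave r = 0.757.

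Of the 10 genes most like Mki67 over all 19 tumors, 6 were on the mitotic lists. By Pearson correlation over 12825 other genes, the 10 closest were Ncaph, Kif23, Pdzd8, Atad2, Top2a, Rfwd3, Cenpe, Ccna2, Nup205 and Kif11, from r = 0.987 for Ncaph to 0.979 for Kif11. Over the 15 tumors without the low set these 10 had r of 0.830 (Ccna2) to 0.909 (Nup205). Ncaph is a condensin subunit, while Pdzd8, Atad2, Rfwd3 and Nup205 were in none of the lists. The median r with Mki67 over the 19 tumors was 0.967 for mitotic and 0.928 for S phase genes, against 0.134 for all genes. Over the 15 tumors these were 0.799 and 0.708, against 0.0645. Among the 100 closest genes were 16 of the 27 mitotic and 3 of the 18 S phase genes (Mcm6, Mcm5 and Cdt1). Gins2 was the least like Mki67 of the S phase genes, at r = 0.581 over the 19 and 0.188 over the 15 tumors.

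Other genes of the pathway, from lists drawn up by function, were compared in the same fit. Of 39 other replication genes, 34 were higher in Rag2-/- tumors, from −0.22 for Orc3, an origin recognition subunit, to 0.93 (SE 0.38) for Mcm10, a replication initiation factor. Of these 0 passed an adjusted p of 0.05, and 4 were higher at an unadjusted p of 0.05, against 6.74% of all genes. Of 44 other mitotic genes, 44 were higher, from 0.19 for Pttg1 (securin) to 1.14 (SE 0.62) for Aspm, a spindle pole protein, and 0 passed at either level. All 12 of the G1 cyclins, their kinases and related genes were higher as well, from 0.05 for the phosphatase Cdc25a to 1.22 (SE 0.74) for its relative Cdc25c, with 0 at an adjusted and 1 at an unadjusted p of 0.05. With the muscle list in the model, 11 of the 39 replication genes, 1 of the 44 mitotic genes and 6 of the 12 G1 genes were above 0, against 46.1% of all genes, with medians of −0.11, −0.25 and 0.0046.

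The list of inhibitors and pocket proteins and that of E2F and DREAM factors were mixed. Of 13 inhibitors and pocket proteins 10 were higher in Rag2-/- tumors, from −0.61 (SE 0.39) for Cdkn1a, the p53 target p21, to 0.75 (SE 0.51) for Fbxo5, an inhibitor of the anaphase-promoting complex. The median was 0.16. Cdkn2c, an inhibitor of Cdk4 and Cdk6 chosen after its value was seen because it had the lowest p of these lists, was at 4.41 ± 0.38 (SD, n = 11) against 3.76 ± 0.35 (SD, n = 8), a difference of 0.65 (SE 0.17, limma adjusted p = 0.301). Of 13 tested E2F and DREAM factors (1 of the list of 14, Mybl1, was below the level tested), 6 were higher, from −0.97 (SE 0.40, adjusted p = 0.301) for the repressor E2f6 to 0.73 (SE 0.45, adjusted p = 0.372) for E2f7. At an unadjusted p of 0.05, 2 of the 13 were lower and 0 higher (16.3% of all genes passed in either direction), and 0 passed an adjusted p of 0.05. With the muscle list in the model, 5 of the 13 inhibitors and pocket proteins were above 0 (median −0.09) and 2 of the 13 E2F and DREAM factors (median −0.17, against −0.06 without it). In that model E2f6 and Cdkn1a rose with the muscle list, with slopes of 0.37 and 0.28 per unit of muscle mean. E2f7 and Fbxo5 fell with it, with slopes of −0.39 and −0.44. Each of these slopes had a limma adjusted p under 0.05. Whether muscle content accounts for the genotype differences of these genes was not tested.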

How the data were processed

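The deposited values are log2 numbers: per the study's methods the authors used Array Studio and its OSA aligner on mouse B38, expressed Ensembl R86 genes as FPKM, scaled these by the upper quartile and log2-transformed the result. The submitters' processing notes name other tools, Trimmomatic 0.36, STAR and HTSeq with mm10, and which of them made the table could not be settled. The lowest value, −3.32, shows that 0.1 had been added. Each of the 19 columns is 1 tumor, and 0 columns were left without a sample. Each tumor has a number of its own in its title, and the study describes its listed tumors as coming from individual mice.

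Rag2-/- minus Rag2+/- was fitted for the 12826 genes with a mean above 0 in limma 3.58.1 (R 4.3.3), allowing the variance to follow intensity, and p-values were adjusted by Benjamini-Hochberg and read at 0.05. Exact permutation tests ran over all 75582 relabelings, and correlations over 100000 permutations. The limma script was tested on simulated data. Depth was estimated from the low values, of which 77.3% to 89.7% were whole fragments to within 0.05, with GENCODE vM21 transcript lengths. Python 3.11.15, numpy 2.4.6, pandas 2.3.3, scipy 1.17.1 and matplotlib 3.10.9 were used.

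The 49 genes, their classes and the other lists were chosen with earlier results of these data known. Named genes are 15 anchors and, in each role group, those with the lowest and highest p and level, the extremes of each other list and the 10 genes most like Mki67. Alternatives added after the values were seen were the muscle coefficient, the removal of S51 and S56 or of S51, S59 and S60, the equal total and correlations without the 4 low tumors. Exome data were not analysed here.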

Additional observations from a re-analysis of the deposited data

How the results depend on the processing

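Of the 49 genes, 0 were called at an adjusted p of 0.05 in each of the 33 alternatives to the limma fit. These were other pseudocounts, filters, normalizations and variance models, the 15 listed tumors, the skeletal muscle list or Xist as a covariate, the removal of S51 and S56 or of S51, S59 and S60, an equal total in every tumor, and each tumor left out in turn. The number of all genes called ran from 0 (only genes with a mean above 2 tested) to 26 (no filter), against 4. With the muscle list as a covariate the estimate turned negative for 32 of the 33 genes named by rule, and the cause was not tested. It was −0.19 for Mki67, −0.32 for Top2a, −0.39 for Cdk1, −0.20 for Ccnb1, −0.31 for Ccnb2, −0.077 for Ccne1, −0.010 for Ccne2, −0.19 for Aurka, −0.20 for Aurkb, −0.48 for Plk1 and −0.039 for Bub1. It was −0.45 for Ttk, −0.82 for Cdc20, −0.25 for Birc5, −0.43 for Kif11, −0.40 for Kif2c, −0.19 for Cenpa, −0.28 for Cenpf, −0.48 for Nuf2, −0.18 for Tpx2, −0.31 for Ube2c and −0.36 for Prc1. It was −0.34 for Mcm2, −0.046 for Pcna, −0.25 for Cdc6, −0.093 for Gins2, −0.17 for Rrm1, −0.40 for Rrm2, −0.24 for Tk1, −0.044 for E2f1, −0.27 for Foxm1 and −0.28 for Mybl2. In the other alternatives that tested them the estimates of the named genes stayed above 0. The difference of the S phase mean (0.51) and of the mitotic mean (0.72) became −0.21 and −0.33 with the muscle covariate (the gap between them went from −0.22 to 0.12), and 0.24 and 0.31 with Xist, which is expressed in females, as the covariate. With single tumors left out they ran from 0.35 to 0.73 and from 0.48 to 1.1, and the difference of the gap between the classes from −0.32 to −0.08. The 4 correlations kept their sign and their side of 0.05 in the 15 listed tumors, after quantile normalization, with a pseudocount of 1 and without the 4 low tumors. With single tumors left out, 23 of the 33 named differences moved by over 1.5 times and 0 fell below 0, with the lowest estimate without S56 for 17, S59 for 9 and S60 for 7, and the highest without S51 for 21, S53 for 7 and S58 for 5. No paired analysis was possible because the study used littermate controls but no label gives a tumor's litter. S41, at 5.23 M fragments, had the lowest depth, while the fewest estimated fragments of any of the 49 genes were the 5 of Cdc20 in S51.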

Other observations

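Other cell lists, compared in the same fit, are given beside these shares over all genes: 6.74% were higher in Rag2-/- tumors at an unadjusted p under 0.05, 16.3% passed in either direction and 0.0312% were called at an adjusted p under 0.05. The macrophage list was at 7.06 ± 0.47 (SD, n = 11) in Rag2-/- and 6.67 ± 0.54 (SD, n = 8) in Rag2+/- tumors, with 7 of 8 genes higher and 0 at an adjusted p under 0.05 from limma (1 at an unadjusted p under 0.05). The neutrophil list was at 3.21 ± 0.69 (SD, n = 11) and 2.51 ± 0.94 (SD, n = 8), with 6 of 6 genes higher and 0 at either level. The NK cell list was at 1.59 ± 0.70 (SD, n = 11) and 0.32 ± 1.0 (SD, n = 8), with 5 of 5 tested genes higher and 0 called, 4 of them at an unadjusted p under 0.05. The endothelial list was at 3.41 ± 0.49 (SD, n = 11) and 3.73 ± 0.35 (SD, n = 8), with 0 of 6 genes higher, 0 called and 1 at an unadjusted p under 0.05. The B and plasma cell list was at −2.58 ± 0.18 (SD, n = 11) and 0.84 ± 1.0 (SD, n = 8). Of that list 2 genes and of the T cell list 4 were above the level tested, and 1 of each was called, Cd2 and Igkc, both lower in Rag2-/- tumors. The mesenchymal list was at 7.41 ± 0.62 (SD, n = 11) in Rag2-/- and 7.09 ± 0.70 (SD, n = 8) in Rag2+/- tumors, with 8 of 8 genes higher. Of these, 0 passed an adjusted or an unadjusted p of 0.05, and with the muscle list in the model 1 of 8 was above 0. The part of all these cells in the cell cycle values was not tested.

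The inhibitor gene Cdkn2a, chosen after its values were seen, had a wide range in Rag2-/- tumors, from 1.12 in S46 to 8.95 in S45 with a median of 8.56, and ran from 5.12 to 8.66 with a median of 7.75 in Rag2+/- tumors. Its means differed by 0.42 (SE 0.89, limma adjusted p = 0.780), and with single tumors left out by 0.13 (without S59) to 1.07 (without S46, SE 0.57, limma adjusted p = 0.309).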
